A study of Mus musculus with 28 samples.

Results

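Antibiotic (ABX) treatment was compared with specific pathogen-free (SPF) housing in the hippocampal microglia of 5xFAD mice, a model of Alzheimer's disease. The comparison holds 9 of the 28 libraries of the series, chosen by title: 6 begin with FAD_ABX and 3 with FAD_SPF, and each comes from 1 mouse. All 9 mice were male heterozygous 5xFAD animals on a C57BL/6 J background, 16 weeks old by the labels. They carried human APP and PS1 transgenes with familial mutations behind the neuron-specific Thy-1 promoter. ABX mice had vancomycin, cefoxitin, gentamicin and metronidazole in their drinking water for 8 weeks by the labels, and SPF mice were colonised animals without these drugs. Viable CD11b+ CD45low cells were sorted after a density gradient, and cells that stained for lineage markers such as CD3, Ly6C or Ly6G were gated out. The same treatment in non-transgenic littermates of the same labelled age, 5 ABX WT and 5 SPF WT mice, serves as the parallel comparison. The fits also hold 5 germ-free (GF) 5xFAD and 4 GF WT mice of that age, raised without microbes, whose levels are given beside 2 of the results.

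Microglia are the resident macrophages of the brain parenchyma and are marked by *P2ry12*, *Tmem119* and *Cx3cr1*. Around amyloid plaques they take on a disease-associated state with high *Apoe*, *Trem2*, *Clec7a* and *Itgax*. Border-associated macrophages of the meninges and perivascular spaces share much of the microglial program but express *Mrc1*, *Cd163* and *Lyve1*, and both they and dendritic cells can present antigen on major histocompatibility complex (MHC) class II molecules. Neutrophils are short-lived granulocytes of the blood whose granules hold the products of *Ngp*, *Ltf* and *Camp*.

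The ABX 5xFAD libraries held 15538689 to 25015029 counted reads and the SPF 5xFAD libraries 18484662 to 20207938. Levels below are CPM, the reads of a gene per 1e6 reads of the library after scaling by the trimmed mean of M values (TMM), which allow a gene to be compared between mice but not one gene with another. The labelled sex was met in every library, since *Xist* had 0 reads in all 9 mice and *Ddx3y*, a Y-linked gene, lay between 84.1 and 123 CPM. Microglial identity was plain in every library: the 10 microglial markers summed to 53800 to 59600 CPM in SPF and 54900 to 63200 CPM in ABX mice, and *Tmem119* alone to 3290 to 4460 CPM. Submitters numbered the libraries in 3 different ways in their descriptions. The 3 SPF 5xFAD mice and mouse FAD_ABX_1151 share the second way, or style,, the other 5 ABX 5xFAD mice have the third, and all SPF WT and ABX WT mice have the first. No source states what the styles stand for, and for the other 5 ABX mice style and treatment cannot be told apart.

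The libraries of 2 ABX mice are treated separately. Mouse FAD_ABX_1151 correlated with SPF 5xFAD mice at a mean Pearson r of 0.982 and with the other ABX 5xFAD mice at 0.951 (log2 CPM of the 8969 genes with a mean of at least 3, a description across genes, which are not independent). FAD_ABX_1452, FAD_ABX_1453, FAD_ABX_1455 and FAD_ABX_1460 also correlated more closely with SPF than with ABX mice, at 0.961 to 0.970 against 0.959 to 0.964, and over the other 8 mice together the mean r of FAD_ABX_1151, 0.963, was like theirs. Mouse FAD_ABX_1482 had the lowest mean r with the other 8 mice, 0.930, and the fewest genes with a read, 16816 against 18226 to 19860 in the other 8. Each result is therefore given over all 6 ABX mice (a fit of 28 mice in 6 groups) and without these 2 mice (26 mice, 4 ABX against 3 SPF).

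Over all 6 ABX mice, edgeR's quasi-likelihood test called 0 of 15298 genes at a Benjamini-Hochberg adjusted p under 0.05, which is 0% in either direction. The smallest adjusted p was 0.383. At an unadjusted p under 0.05, 630 genes were higher (4.12%) and 455 lower (2.97%) in ABX mice. DESeq2 called 6 higher and 2 lower, and limma's voomWithQualityWeights, the method of the study, which gave mouse FAD_ABX_1482 a sample weight of 0.308, called 62 higher and 72 lower. Without FAD_ABX_1151 and FAD_ABX_1482, edgeR called 14 of 15278 genes higher (0.0916%) and 22 lower (0.144%), against 809 (5.3%) and 814 (5.33%) at an unadjusted p under 0.05. In a fit of these 2 groups alone edgeR called 29 higher and 20 lower. DESeq2 called 156 genes over the 4 ABX mice and voomWithQualityWeights 552. Below, a gene called without a named tool was called by edgeR. Leaving out FAD_ABX_1151 alone gave 59 calls, and leaving out any other single mouse of the 9 gave 0.

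**Figure D1:**
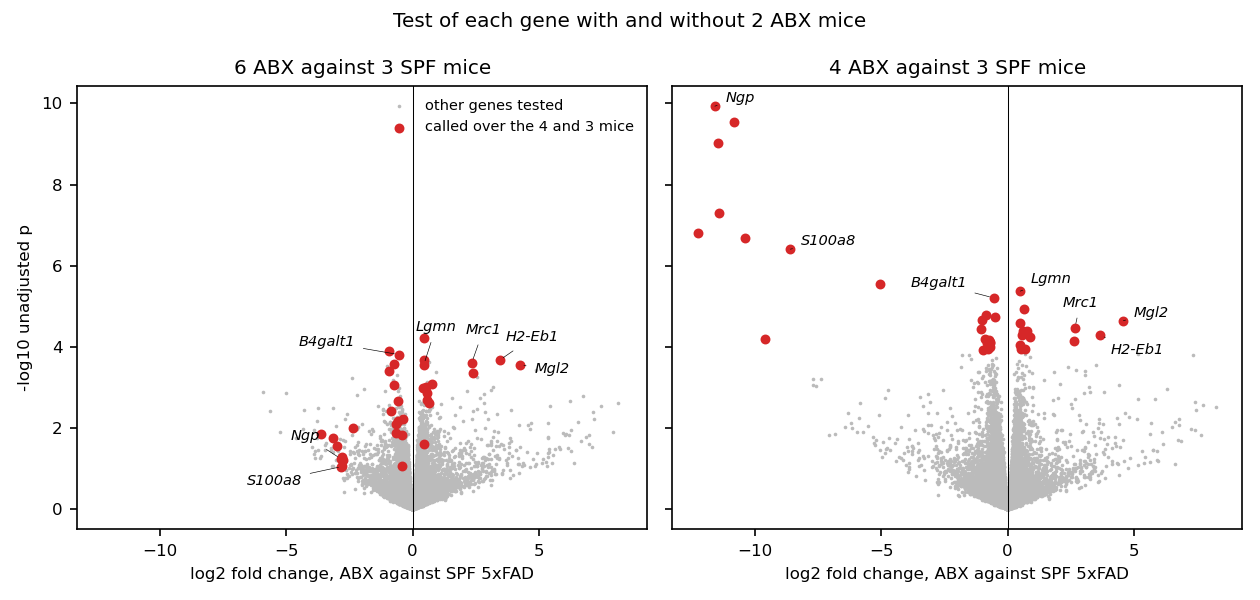
Log2 fold change of ABX against SPF 5xFAD mice (x) and -log10 of the unadjusted edgeR p (y) for each gene tested, over 6 ABX mice (left) and over 4 (right), with the genes called over the 4 ABX mice in red. The red genes lie on the same side of 0 in both panels, which share the mice through which these genes were chosen. The fitted falls of *Ngp* and *S100a8*, whose size depends on the prior count where libraries have 0 reads, are larger without the 2 mice.

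The 36 genes of the 7-mouse comparison had varied roles, and the number of calls depended on single mice. The 14 rises became 1 without FAD_SPF_1144, FAD_SPF_1146 or FAD_ABX_1455, 2 without FAD_SPF_1148, 4 without FAD_ABX_1452, 11 without FAD_ABX_1453 and 19 without FAD_ABX_1460. The 22 falls became 8 without FAD_SPF_1146, 9 without FAD_SPF_1148, 11 without FAD_ABX_1452 or FAD_ABX_1455, 12 without FAD_SPF_1144, 25 without FAD_ABX_1453 and 38 without FAD_ABX_1460. Among the 14 that rose were the antigen presentation genes *H2-Eb1* and *H2-Ab1*, the macrophage lectins *Mrc1* and *Mgl2*, the endocytic adaptor *Dab2*, the matrix protein gene *Tgfbi*, the lysosomal protease gene *Lgmn*, the antioxidant enzyme gene *Gpx1*, the effector caspase gene *Casp6* and *Usp2*, a deubiquitinase tied to the circadian clock. *Slc41a3*, *Tmem100*, *Rsrp1* and *Aars* made up the rest. Of the 22 that fell, 7 were neutrophil markers and an eighth was *Chil3*, a chitinase-like gene of myeloid cells; these 8 passed the filter on low counts only through the libraries in which they are high, so their place among the 22 is fixed by the filter. All 36 had the same direction over the 6 ABX mice, where 30 had an unadjusted p under 0.05 and the largest was 0.0914. That fit holds the same 7 mice through which the 36 were chosen, so this is a description and no separate check. The 2 mice left out lay in different places. The shares of all genes tested at such places were not computed, so the counts that follow describe these 36 genes only. FAD_ABX_1482 lay beyond the SPF range, on the side of the other ABX mice, for 13 of the 14 rises and 21 of the 22 falls. FAD_ABX_1151 did so for 3 of the 14 rises and 4 of the 22 falls, lay within the SPF range for 7 and 12, and beyond it on the opposite side for 4 and 6. Set alone against the SPF mice, it had 20 of 36 genes on the side of the fit, with a median log2 ratio in that direction of 0.04, where the median size of the 36 fitted changes was 0.86.

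**Figure D2:**
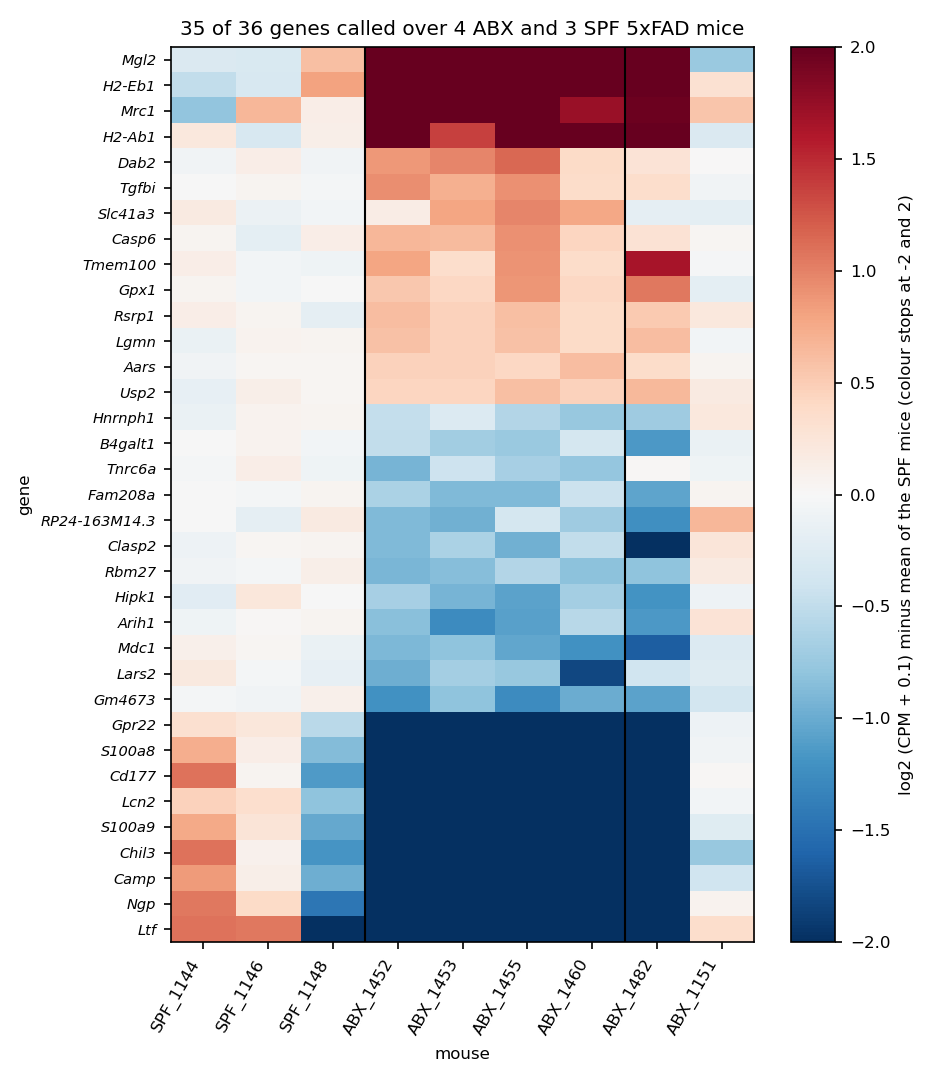
Log2 (CPM + 0.1) of 35 of the 36 genes called over 4 ABX and 3 SPF 5xFAD mice (rows), minus the mean of the SPF mice, in each of the 9 mice (columns), with colours that stop at -2 and 2. The 4 ABX mice and FAD_ABX_1482 share their colours in nearly all rows, and the column of FAD_ABX_1151 is close to those of the SPF mice.

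Of the MHC class II genes *H2-Eb1* and *H2-Ab1* rose over 4 ABX mice. Over 6 ABX mice edgeR called 0 of the 10, DESeq2 1 and voomWithQualityWeights 2. *H2-Eb1*, a class II beta chain on chromosome 17 (34305877 to 34316199, GRCm38, plus strand), stood at 7.55, 8.51 and 18.6 CPM in the SPF mice. In the ABX mice it stood at 52.6 CPM in FAD_ABX_1453, 107 in FAD_ABX_1460, 157 in FAD_ABX_1482, 205 in FAD_ABX_1452 and 224 in FAD_ABX_1455, but at 13.2 in FAD_ABX_1151, within the SPF range. Its log2 fold change was 3.46 ± 0.82 (SE) over the 6 ABX mice (adjusted p = 0.383, edgeR) and 3.67 ± 0.77 over 4 (adjusted p = 0.0366).

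The promoters of *H2-Eb1* and of its neighbour *H2-Aa* are printed here because both genes had the same order of ABX mice. Class II genes are known to be switched on together by the coactivator CIITA through an X box and a Y box near their start. The 150 bases before the RefSeq start (GRCm38.p6) are given 5′ to 3′ on the strand of the gene. Capitals mark GATTGG or its reverse complement, the core of the Y box, and AGCAAC, found in the X box of many class II genes; both strands were searched and the motifs do not overlap.
H2-Eb1, chr17:34305717-34305866, plus strand: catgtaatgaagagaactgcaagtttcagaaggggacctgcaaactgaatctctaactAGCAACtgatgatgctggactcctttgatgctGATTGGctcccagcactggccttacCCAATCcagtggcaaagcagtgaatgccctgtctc
H2-Aa, chr17:34287824-34287973, minus strand: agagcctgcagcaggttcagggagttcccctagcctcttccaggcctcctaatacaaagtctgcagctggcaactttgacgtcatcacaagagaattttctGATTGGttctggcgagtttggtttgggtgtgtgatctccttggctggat
GATTGG began 60 bases before the start of *H2-Eb1* and 49 bases before that of *H2-Aa*, and AGCAAC began 92 bases before that of *H2-Eb1*. Of the 10 genes of the MHC class II list, 7 had such a window, and 6 of these held GATTGG and 3 held AGCAAC in any window of the gene. In all 32851 single windows the shares were 10.9% and 7.75%, counted per window and not per gene. A match describes these letters and not a bound site.

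*H2-Ab1*, *H2-Aa* and *Cd74* had the same order of the 6 ABX mice as *H2-Eb1*. *H2-Ab1* (chromosome 17, 34263209 to 34269418) had 37.7 to 54.6 CPM in the SPF mice, 38.6 CPM in FAD_ABX_1151 and 122 to 414 CPM in the other 5 ABX mice, a log2 fold change of 2.41 ± 0.61 over 6 ABX mice (adjusted p = 0.434) and 2.62 ± 0.56 over 4 (adjusted p = 0.0400). *H2-Aa*, the alpha chain, had 13.9 to 24.5 CPM in SPF mice, 14.8 CPM in FAD_ABX_1151 and 64.0 to 239 CPM in the other 5, with an adjusted p of 0.0897 over 4 ABX mice. *Cd74*, the invariant chain that guides class II molecules to the endosome, had 148 to 210 CPM in SPF mice, 132 CPM in FAD_ABX_1151 and 333 to 1030 CPM in the other 5, with an adjusted p of 0.116. So for all these genes 5 ABX mice were above every SPF mouse and 1 was not. All 10 list members were tested. Over 6 ABX mice 4 were higher at an unadjusted p under 0.05 and 0 lower, and the median log2 fold change was 0.92, where the median of all genes tested was 0.01. Over 4 ABX mice 2 rose past the adjusted threshold (4 with DESeq2 and 4 with voomWithQualityWeights), 7 had an unadjusted p under 0.05, and the median was 1.12. MHC class I and peptide loading genes, 18 tested, had medians of 0.04 and -0.01, with 0 called.

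Of 10 markers of border-associated macrophages 1, *Mrc1*, rose over 4 ABX mice. Over 6 ABX mice edgeR called 0, DESeq2 1 and voomWithQualityWeights 6. *Mrc1* (chromosome 2, 14229392 to 14332057), the mannose receptor, had 5.27, 14.6 and 10.1 CPM in the SPF mice, 13.6 CPM in FAD_ABX_1151 and 30.8 to 97.0 CPM in the other 5 ABX mice. Its log2 fold change was 2.34 ± 0.56 over 6 ABX mice (adjusted p = 0.383) and 2.67 ± 0.54 over 4 (adjusted p = 0.0302). *Cd163*, the haemoglobin scavenger receptor, had 2.26 to 4.40 CPM in SPF mice, 5.98 CPM in FAD_ABX_1151 and 14.8 to 40.3 CPM in the other 5, and here the 2 groups of all 9 mice did not overlap (exact permutation p = 0.0238, two-sided, the smallest possible with 6 against 3). *Lyve1*, *Pf4*, *Cbr2*, *F13a1* and *Ms4a7* had the same direction, with log2 fold changes of 2.69 to 3.40 over 6 ABX mice and unadjusted p-values of 0.000993 to 0.0130. Of the 10 markers, 7 had an unadjusted p under 0.05 and 0 were lower, the median log2 fold change was 2.76 over 6 ABX mice and 3.04 over 4, and 1, *Mrc1*, was called over 4 (1 with DESeq2, 7 with voomWithQualityWeights). *Folr2*, *Siglec1* and *Stab1* did not pass, and *Stab1*, which microglia also express, carried most of the summed level of the list, 290 to 600 CPM in SPF and 576 to 890 CPM in ABX mice.

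Dendritic cell and monocyte markers were measured for the same reason, the first with a list added after the values had been seen. *Mgl2*, a lectin of dendritic cells and macrophages, rose from 0.640 to 1.29 CPM in SPF mice to 7.27 to 31.1 CPM in the 4 ABX mice, with 15.0 CPM in FAD_ABX_1482 and 0.451 CPM in FAD_ABX_1151 (log2 fold change 4.59 ± 0.87 over 4 ABX mice, adjusted p = 0.0232). *Cd209a*, a lectin of monocyte-derived dendritic cells, had 0 to 0.914 CPM in SPF mice, 1.58 CPM in FAD_ABX_1151 and 6.29 to 42.5 CPM in the other 5 (adjusted p = 0.0591 over 4). The 10 dendritic cell markers were all above 0 in log2 fold change over 6 ABX mice, 7 at an unadjusted p under 0.05, with medians of 1.47 and 1.81, and voomWithQualityWeights called 2 over 6 ABX mice and 4 over 4. *Ccr2*, the chemokine receptor of blood monocytes, had 7.71 to 8.6 CPM in SPF mice and 8.69 to 51.5 CPM in ABX mice without overlap, whereas *Ly6c2*, a marker of inflammatory monocytes, was at 0 reads in 5 ABX mice and between 0.148 and 1.03 CPM in the other 4 of the 9. Of the 8 monocyte markers tested 2 were higher and 1 lower at an unadjusted p under 0.05 over 6 ABX mice. In bulk libraries more cells of a type and more RNA per cell cannot be told apart, and the part that such cells had in the rise of class II genes was not tested.

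**Figure D3:**
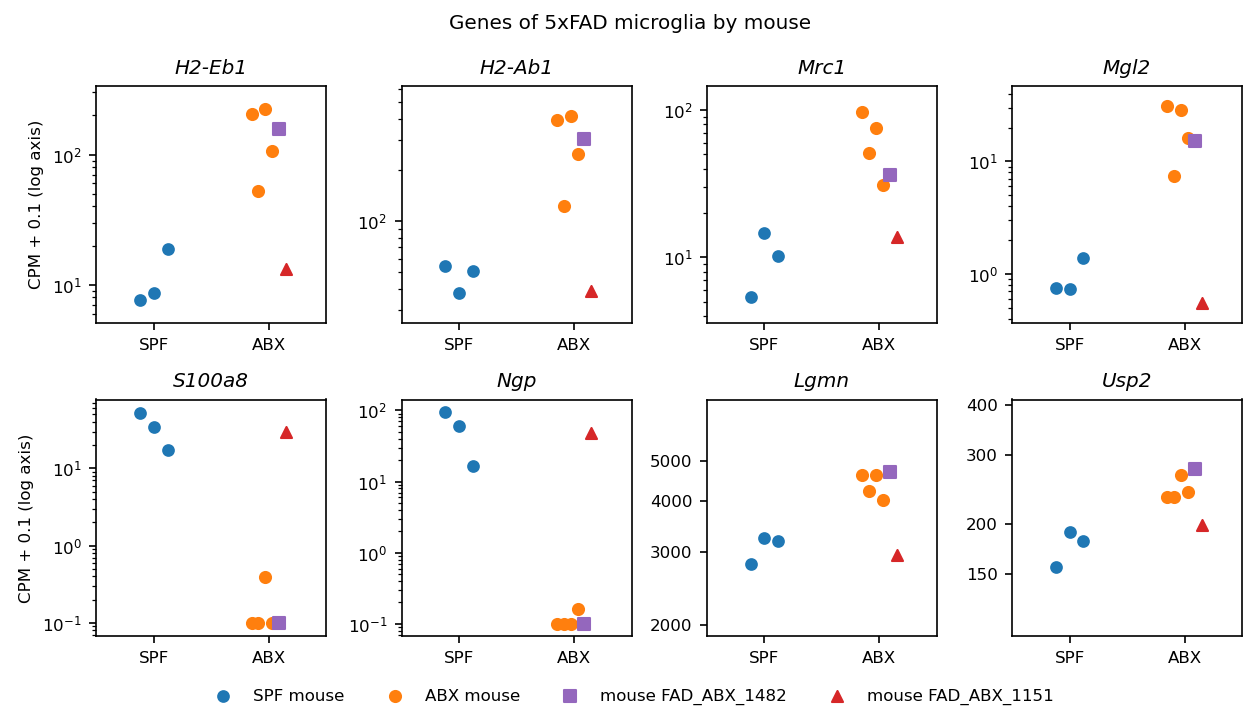
CPM + 0.1 on a log axis for 8 genes in the 3 SPF and 6 ABX 5xFAD mice, 1 point per mouse, with FAD_ABX_1151 as a red triangle and FAD_ABX_1482 as a purple square. The triangle lies at or near the SPF points in all 8 panels, while the square lies with the 4 remaining ABX mice.

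Neutrophil transcripts were nearly absent from 5 of the 6 ABX mice, and present in the 3 SPF mice and in FAD_ABX_1151, a split that runs along the numbering styles. *S100a8* (chromosome 3, 90668978 to 90670035) and *S100a9*, which encode the subunits of calprotectin, had 17.2 to 52.0 and 14.6 to 50.4 CPM in the SPF mice and 29.9 and 25.1 CPM in FAD_ABX_1151. In the other 5 ABX mice together there were 7 reads of *S100a8* and 4 of *S100a9*, against 1974 and 1916 in the 3 SPF mice, ratios per scaled library of 482 (95% interval 234 to 1200) and 819 (319 to 3010), where the intervals cover counting error only. *Ngp* and *Camp*, on chromosome 9, encode granule proteins; each had 1 read in these 5 mice, against 3263 and 1005 in SPF mice. *Ltf*, *Lcn2*, *Cd177* and *Chil3* had 0 reads in them. Against a floor of 3 reads over the 5 mice, these 4 were at least 994-fold, 275-fold, 156-fold and 557-fold higher in SPF mice.

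Of the 12 neutrophil markers, 7 passed the filter on low counts, and only through the libraries in which they are high, so that their fall is fixed by the filter and is given as a description. Their adjusted p-values over 4 ABX mice ran from 1.78e-06 for *Ngp* to 0.0392 for *Cd177*. Over all 6 ABX mice edgeR called 0 of them (2 at an unadjusted p under 0.05) and voomWithQualityWeights 6. FAD_ABX_1151 lay within the SPF range for all 7, and its 12 markers summed to 152 CPM, beside 67.0, 203 and 288 CPM in the SPF mice. In the other 5 ABX mice the sum was at most 0.784 CPM. It was at most 0.285 CPM in every WT mouse and at most 0.0519 CPM in every GF 5xFAD mouse, so the 4 libraries of the second numbering style were the only ones of the 28 above 1 CPM. The gate excluded Ly6G+ cells, and the part of the numbering style in this difference was not tested. Over 4 ABX mice DESeq2 gave an adjusted p to 1 of the 7, *Ngp*, and called it, and voomWithQualityWeights called 6.

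**Figure D4:**
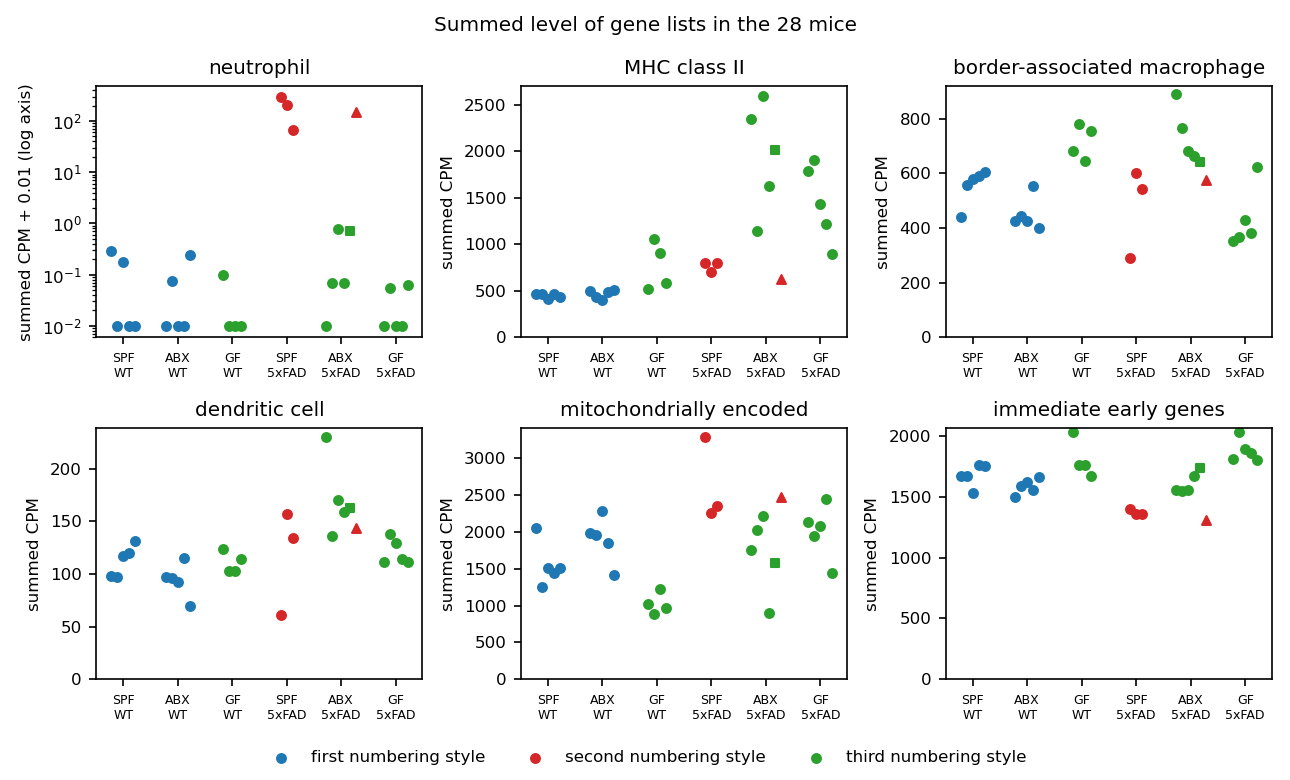
Summed CPM of 6 gene lists in each of the 28 mice by group (x), coloured by the numbering style of the library description, with FAD_ABX_1151 as a triangle and FAD_ABX_1482 as a square; the neutrophil panel shows CPM + 0.01 on a log axis. The neutrophil sum is high only in the second style (67.0 to 288 CPM), and the class II sum is 627 to 798 CPM in that style and 1140 to 2590 CPM in the other 5 ABX 5xFAD mice.

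Genes of the mitochondrial genome gave 0 edgeR calls, with all values below 0. All 7 that were tested, of 13, had an unadjusted p under 0.05 over 6 ABX mice and over 4, with median log2 fold changes of -0.57 and -0.66, but edgeR and DESeq2 called 0 of them in either fit, and voomWithQualityWeights 1, *mt-Nd2*, over 4 ABX mice only. *mt-Nd2*, a subunit of respiratory complex I, had 132 to 159 CPM in SPF mice, 39.7 to 108 CPM in 5 ABX mice and 132 CPM in FAD_ABX_1151, all 6 below the SPF range although the last by less than rounding shows (log2 fold change -0.69 ± 0.24 over 6, adjusted p = 0.635). *mt-Co1*, the catalytic subunit of complex IV, had 349 to 588 CPM in SPF and 144 to 439 CPM in ABX mice, and the groups overlapped. These genes together held 0.283 to 0.425% of the reads of SPF libraries, 0.103 to 0.262% of those of 5 ABX libraries and 0.318% in FAD_ABX_1151. In the 9 mice this share splits along the numbering styles, whose part in it was not tested. The 7 genes are not independent of one another. The share was small throughout, and 5 of the 13 genes were at 0 reads in all 9 mice. In WT mice the same 7 genes had a median log2 fold change of 0.32 for ABX against SPF, with 0 at an unadjusted p under 0.05.

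Nuclear genes of the organelle are given next. *Lars2*, the mitochondrial leucyl-tRNA synthetase (chromosome 9, 123366940 to 123462664), had 309, 261 and 240 CPM in the SPF mice and 76.2 to 204 CPM in 5 ABX mice, with 224 CPM in FAD_ABX_1151. It was below every SPF mouse in all 6, as were 1.26% of all genes tested, and lack of overlap was one reason for naming it. It fell over 4 ABX mice (log2 fold change -1.0 ± 0.20, adjusted p = 0.0232, edgeR). Of 78 mitochondrial ribosomal protein genes, 65 were above 0, 7 at an unadjusted p under 0.05 and 0 called, with a median of 0.13; over 4 ABX mice DESeq2 called 1 and voomWithQualityWeights 4. *Mrps34*, of the small subunit, had 5.92 to 7.78 CPM in SPF mice and 6.37 to 16.7 CPM in ABX mice. Nuclear subunits of complex I and of complexes III to V had medians of 0.05 and 0.03, and the 80 cytosolic ribosomal protein genes a median of 0.00.

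*Lgmn* was the one gene of the disease-associated list to pass. It encodes legumain, an asparaginyl endopeptidase of the lysosome, and lies on chromosome 12 (102394084 to 102439813, minus strand). It had 2810, 3240 and 3190 CPM in the SPF mice, 2950 CPM in FAD_ABX_1151 and 4010 to 4700 CPM in the other 5 ABX mice. The log2 fold change was 0.44 ± 0.11 over 6 ABX mice (adjusted p = 0.383) and 0.51 ± 0.09 over 4 (adjusted p = 0.00720). In WT mice the order was opposite, with 4340 to 5600 CPM in SPF and 3810 to 4670 CPM in ABX mice (log2 fold change -0.21 ± 0.09, adjusted p = 1 over 28 mice). The ABX effects of the genotypes differed in the interaction test over 26 mice (difference 0.72 ± 0.11 on the log2 scale, adjusted p = 0.0142), not over 28 (0.66, adjusted p = 0.704). Over 26 mice all ABX 5xFAD mice differ from the SPF 5xFAD mice in numbering style, whereas ABX and SPF WT mice share a style. Genotype and style therefore cannot be told apart in this difference.

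edgeR called none of the other 31 genes of the list in either fit, and voomWithQualityWeights called 1, the potassium channel gene *Kcnj2*, lower over 4 ABX mice (adjusted p = 0.0269). *Apoe*, the lipid carrier, had 3340 to 4880 CPM in SPF and 2920 to 6430 CPM in ABX mice, a log2 fold change of 0.11 ± 0.24 (adjusted p = 0.940). *Trem2*, the receptor for lipids on plaques, had -0.01 ± 0.11, and *Tyrobp*, its adaptor, -0.10 ± 0.15. *Clec7a*, the receptor dectin-1, had 318 to 544 CPM in SPF and 269 to 342 CPM in ABX mice (-0.37 ± 0.19, unadjusted p = 0.0657). *Itgax*, which encodes CD11c, had 81.4 to 113 CPM in SPF and 46.2 to 96.7 CPM in ABX mice (-0.46 ± 0.26, unadjusted p = 0.0887). *Axl*, *Cst7*, *Cd9*, *Lpl* and *Spp1* lay between -0.21 and 0.28 with adjusted p-values of 0.891 and above, and the signs of *Trem2*, *Cd9* and *Lpl* turned when mouse FAD_SPF_1144 was left out, as did those of *Trem2*, *Cd9* and *Cst7* with voomWithQualityWeights (0.04, 0.02 and 0.03). Over the 32 genes of the list the median was -0.05, with 1 gene higher and 1 lower at an unadjusted p under 0.05.

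Homeostatic microglial genes gave medians of 0.01 and 0.04 over the 25 tested, with 0 called by edgeR in either fit, where DESeq2 called 1 and voomWithQualityWeights 2 over 4 ABX mice, and voomWithQualityWeights 1 over 6. *P2ry12*, the purine receptor of resting microglia, had 6630 to 7410 CPM in SPF and 5280 to 8650 CPM in ABX mice (log2 fold change 0.02 ± 0.11). *Tmem119*, *Cx3cr1* and *Csf1r*, the receptor that microglia need to survive, had 0.07 ± 0.10, 0.13 ± 0.10 and 0.07 ± 0.08. *App* was lower by 0.21 ± 0.10 on the log2 scale over 6 ABX mice (edgeR, unadjusted p = 0.0421, adjusted p = 0.690), a value that can include reads of the human transgene, but had -0.15 ± 0.10 over 4 (unadjusted p = 0.139). In WT mice, which lack the transgene, *App* had -0.27 ± 0.09 (unadjusted p = 0.00548, adjusted p = 1).

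*Usp2* had the smallest unadjusted p of all genes over the 6 ABX mice, and is followed here by the genes of the circadian clock. It had 156 to 191 CPM in SPF mice and 235, 235, 242, 266 and 276 CPM in 5 ABX mice, and FAD_ABX_1151, the lowest of the 6, was still above every SPF mouse. Its log2 fold change was 0.46 ± 0.10 (unadjusted p = 6.13e-05, adjusted p = 0.383), and it rose over 4 ABX mice (0.48 ± 0.09, adjusted p = 0.0249). *Cry2* and *Cry1*, the repressors of the clock, had 9.56 to 16.6 and 10.7 to 15.5 CPM in SPF mice and 18.6 to 28.5 and 14.3 to 28.3 CPM in ABX mice, with adjusted p-values of 0.0916 and 0.0642 over 4. *Csnk1e*, a kinase of the PER proteins, was higher by 0.27 ± 0.08. *Clock*, an activator, was lower by 0.50 ± 0.19, with 62.9 CPM in FAD_ABX_1151 and 22.8 to 43.1 CPM in the other 5 against 51.5 to 61.5 CPM in SPF mice. Of 20 clock genes tested, 3 were higher and 1 lower at an unadjusted p under 0.05 over 6 ABX mice and 5 and 3 over 4. edgeR called 0, while over 4 ABX mice DESeq2 and voomWithQualityWeights each called 3 higher (*Cry1*, *Cry2* and *Csnk1e*) and 1 lower (*Clock*), and over 6 voomWithQualityWeights called 2 and 1. The median was 0.02 over 6 and 0.17 over 4. Time of day at collection is not given in the sources used here.

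Immediate early genes gave 0 calls with edgeR, with more values above 0 than below, and DESeq2 and voomWithQualityWeights each called 1 over 4 ABX mice, *Klf6*, which voomWithQualityWeights also called over 6. Of 24 immediate early genes, 6 were higher and 0 lower at an unadjusted p under 0.05, with a median of 0.30 over 6 ABX mice and 0.36 over 4. *Klf6* had 170 to 211 CPM in SPF and up to 256 CPM in ABX mice, and *Junb* 101 to 104 and 96.6 to 200 CPM, with FAD_ABX_1151 lowest in both. *Fos* was at most 1.18 CPM in SPF mice and ranged from 0.391 to 19.0 CPM in ABX mice. *Tsc22d3*, a glucocorticoid target, had 39.4 to 73.8 CPM in SPF and 56.6 to 153 CPM in ABX mice (unadjusted p = 0.0454). The 19 glucocorticoid receptor and target genes had a median of 0.20, and the 1 called over 4 ABX mice was *Lcn2*, also a neutrophil marker, which fell.

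Some genes had no overlap between the 6 ABX and 3 SPF mice while falling short of the adjusted threshold, and they are given as a description. In all, 174 genes (1.14% of those tested) were above the SPF range in every ABX mouse and 192 (1.26%) below it. Were the mice interchangeable, 6 against 3 mice would separate fully, in either direction, for a share of about 0.0238 of genes. The shares of 1.14% and 1.26% together lie close to this, so the number of genes without overlap shows no excess over it. Among genes with a mean log2 CPM of at least 3 over the 9 mice, the 8 such rises of lowest unadjusted p were *Usp2* and *Cry2*, described above, *Rsrp1*, the lysosomal channel gene *Tpcn1*, *Rgl1*, the alanyl-tRNA synthetase gene *Aars*, the costimulatory ligand gene *Icosl* and *Trmt10c*, which acts on mitochondrial tRNA. *Rsrp1* had 1500 to 1870 CPM in SPF and 1970 to 2620 CPM in ABX mice and *Icosl* 65.4 to 85.6 and 87.9 to 138 CPM. The 8 falls chosen likewise were *Gm4673*, *B4galt1*, *Pdlim5*, *Mdc1*, *Hsd17b11*, *Selt*, *Paip1* and *Lars2*. *B4galt1*, a galactosyltransferase of the Golgi, had 227 to 249 CPM in SPF and 107 to 215 CPM in ABX mice, a log2 fold change of -0.56 ± 0.13 over 6 (adjusted p = 0.383) and -0.56 ± 0.10 over 4 (adjusted p = 0.00951). *Mdc1*, a mediator of the DNA damage checkpoint, had 24.6 to 28.9 and 8.53 to 22.3 CPM (adjusted p = 0.04996 over 4).

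The remaining falls over 4 ABX mice included *Gpr22*, an orphan receptor gene at 1.77 to 3.26 CPM in SPF mice, 2.43 CPM in FAD_ABX_1151 and at most 0.391 CPM in the other 5, and genes with ubiquitous roles in RNA, cytoskeleton and membranes. *Arih1*, a ubiquitin ligase, had 69.7 to 77 CPM in SPF mice, 88.7 CPM in FAD_ABX_1151 and 30.8 to 50 CPM in the other 5 (log2 fold change -0.91 ± 0.19, adjusted p = 0.0392). *Hipk1*, a nuclear kinase, *Clasp2*, which binds microtubules, and *Tnrc6a*, a partner of Argonaute, fell by 0.84, 0.73 and 0.69 on the log2 scale. Together with *Rbm27*, *RP24-163M14.3*, *Fam208a* and *Hnrnph1* their log2 fold changes ran from -0.91 to -0.51. In FAD_ABX_1151 6 of the 22 falls were above the SPF range, *Arih1*, *Rbm27*, *Clasp2*, *RP24-163M14.3*, *Fam208a* and *Hnrnph1*. The 14 falls that were neither neutrophil genes nor *Chil3* had a median summed exon length of 6136 bases, where that of the 14 rises was 2794 and that of all genes tested 3516. Genes over 6000 bases held 23.9 to 26.5% of reads in SPF libraries, 21.5 to 24.9% in 5 ABX libraries and 28% in FAD_ABX_1151, and the part of this shift in the falls was not tested.

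The remaining immune and metabolic lists gave 0 edgeR calls apart from *Lgmn* and *Gpx1*. Of 39 interferon-stimulated genes 1 was higher at an unadjusted p under 0.05, with a median of 0.26 over 6 ABX mice. Their sum had a median of 1420 CPM in ABX mice (1120 to 2540 CPM, highest in FAD_ABX_1452) and of 1390 CPM in SPF mice (1370 to 1440 CPM). Complement, Toll-like receptor and NF-kappaB, phagocytic and Fc receptor, V-ATPase, LXR target, cholesterol, fatty acid, glycolysis, mTOR, autophagy, proteasome and heat shock lists had medians between -0.04 and 0.11 over 6 ABX mice, with 0 genes called by edgeR in either fit. Over these 12 lists DESeq2 called 1 gene over 6 ABX mice, *Cfp*, and 2 over 4, *Srebf1* and *Ulk2*, and voomWithQualityWeights 6 and 20. Of the 22 phagocytic and Fc receptor genes, 4 were higher and 2 lower at an unadjusted p under 0.05 over 6 ABX mice and 6 and 2 over 4. Among them *Fcgr3*, an IgG receptor gene, had 1480 to 1650 CPM in SPF mice, 1420 CPM in FAD_ABX_1151 and 1760 to 2060 CPM in the other 5, and *Itgav*, an integrin chain, had 245 to 321 CPM in SPF mice, 353 CPM in FAD_ABX_1151 and 96.5 to 265 CPM in the other 5. Of 14 chemokine receptor genes, 3 were higher at an unadjusted p under 0.05. Chemokines and their receptors had medians of 0.12 and 0.06, cathepsins, cystatins and legumain 0.03, lysosomal hydrolases -0.01, cell cycle genes 0.06, antioxidant enzymes 0.06 and the TGF-beta pathway -0.14, and among these lists edgeR called *Lgmn* and *Gpx1* over 4 ABX mice. Markers of neurons (8 tested), astrocytes (8), oligodendrocytes (7) and endothelial cells (5) gave 0 calls, with medians between -0.26 and 0.44. B cell and T cell lists had 2 genes tested each and erythrocyte genes 0, so none of these lists was read further. Within the first lists *Cfp*, the complement factor properdin, had 0.163 to 1.40 CPM in SPF and 1.75 to 10.8 CPM in ABX mice without overlap (adjusted p = 0.0897 over 4). *Gpx1*, a selenium-dependent peroxidase, had 227 to 243 CPM in SPF mice, 205 CPM in FAD_ABX_1151 and 313 to 490 CPM in the other 5, and rose over 4 (0.58 ± 0.12, adjusted p = 0.0366). The aryl hydrocarbon receptor target *Tiparp* had 22.3 to 25.5 CPM in SPF and 22.9 to 38.9 CPM in ABX mice, and the list of sensors of microbial metabolites and histone deacetylases had a median of 0.03.

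**Figure D5:**
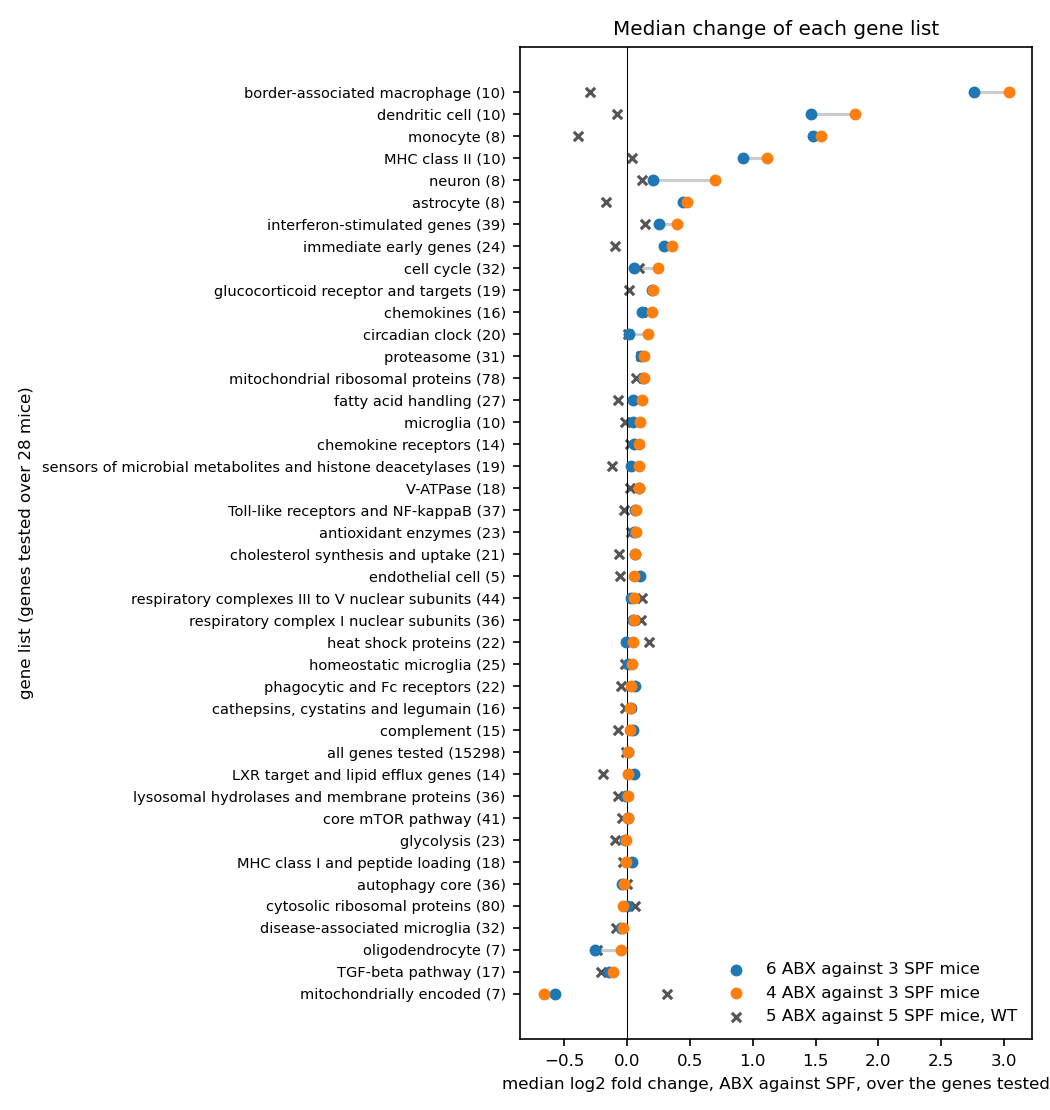
Median log2 fold change of ABX against SPF over the tested genes of each list with at least 5 of them (the neutrophil list is left out, since its fitted values rest on libraries at 0 reads), for 6 and for 4 ABX mice against 3 SPF 5xFAD mice and, as crosses, for WT mice. The lists of border-associated macrophages, dendritic cells, monocytes and MHC class II lie highest and mitochondrially encoded genes lowest, while most lists lie near 0.

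The same antibiotics in WT mice gave 0 calls of 15298 genes with edgeR (0%), 687 genes at an unadjusted p under 0.05, 2 calls with DESeq2 and 0 with voomWithQualityWeights. All 10 of these mice share 1 numbering style. The class II sum was 411 to 466 CPM in SPF WT and 402 to 508 CPM in ABX WT mice, and *H2-Ab1* had 7.60 to 11.5 and 6.66 to 14.3 CPM. Germ-free mice, which have the third numbering style and no antibiotics, had class II sums of 897 to 1900 CPM where labelled as 5xFAD, or 1220 to 1900 CPM without FAD_GF_201, whose description names it WT against its title. Their WT counterparts had 524 to 1060 CPM. The disease-associated list summed to 28900 CPM in FAD_GF_201 and to 12600 to 15700 CPM in GF WT mice. *Mrc1* had 3.18 to 7.54 CPM in SPF WT and 3.21 to 5.17 CPM in ABX WT mice. The test of the difference between the ABX effects of 5xFAD and WT mice called 0 genes over 28 mice (0%, smallest adjusted p = 0.704, 1032 genes at an unadjusted p under 0.05, 1 call with DESeq2 and 14 with voomWithQualityWeights) and 1 over 26 mice (0.00655%), *Lgmn*. For *H2-Ab1* and *Mrc1* that difference was 2.5 ± 0.71 and 2.95 ± 0.68 over 26 mice, with adjusted p-values of 0.260 and 0.191, so a difference between the genotypes was not shown for them.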

How the data were processed

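Hippocampal microglia of 28 mice were profiled by low-input RNA-seq. The authors aligned reads with STAR 2.7.2 and deposited raw gene counts from featureCounts 1.6.2 (versions from the submitters' processing notes). The methods name GRCm38 with GENCODE M21, the processing notes name a human build, GRCh38, and the exon coordinates of the table are mouse. The 92 spike-in entries were dropped from 48587. edgeR 4.0.16 (R 4.3.3) fitted quasi-likelihood models with 6 groups, TMM scaling and filterByExpr (minimum count 10, minimum total 15), over 28 mice and over 26, with Benjamini-Hochberg adjustment over all genes tested. Single genes had exact permutation tests (smallest two-sided p 0.0238 for 6 against 3, 0.0571 for 4 against 3). DESeq2 1.42.0, limma 3.58.1 (voomWithQualityWeights, the test of the study), other scalings and filters, and leaving out each mouse were alternatives. The scripts were tested on simulated counts. Each replicate is a mouse, and no pair of libraries within the SPF or within the ABX 5xFAD mice agreed within sampling noise (the other groups were not compared this way). Depth was 15538689 to 25015029 counts per library in the 9 5xFAD mice compared, and count intervals cover counting error only.

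The members and gene lists were chosen with earlier results of these data known. Genes were named by a fixed rule: up to 8 rises and 8 falls with the largest change among those called at a mean log2 CPM of at least 3, filled with non-overlapping genes of lowest p, 15 microglial genes, up to 4 per list of lowest p, and marker genes; the other genes called over 26 mice, and *Mgl2* and *Cd209a* of the dendritic list, were named after their values were seen. Summed exon lengths and positions are those of the deposited table. Gene symbols matched GENCODE M21 for 46484 entries. Promoters are RefSeq sequence. Results of some items are not reported here.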

Additional observations from a re-analysis of the deposited data

Results flagged for a closer look

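Within the 6 ABX 5xFAD mice, Dixon's ratio (the gap of the end mouse to its nearest neighbour over the whole range, held against its 95% critical value) was computed on log2 values, with a prior count of 2 for genes and 0.1 CPM added for list sums, over 61 genes and 45 list sums, and 11 genes and 3 lists passed, where chance gives about 5% of groups chosen without regard to their values. All 11 genes are among those called without FAD_ABX_1151, so the choice favours that mouse as the end mouse and the 5% is no yardstick for them. Mouse FAD_ABX_1151 was the end mouse for all 11 genes. It was the highest for the neutrophil genes and *Chil3*, with ratios of 1 for *Ltf*, *Lcn2*, *Cd177* and *Chil3*, 0.923 for *Ngp*, 0.895 for *Camp*, 0.803 for *S100a9* and 0.761 for *S100a8*, and with 0.703 for the neutrophil list, and it was also highest for *Rbm27* (0.689). It was the lowest for *Lgmn* (0.659) and *Mgl2* (0.643). Mouse FAD_ABX_1452 was the highest for the interferon-stimulated list (0.635), at 2540 CPM, and mouse FAD_ABX_1460 for the glycolysis list (0.713), at 4220 CPM.

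For *Lgmn*, the ABX effect in 5xFAD mice exceeded that in WT mice by 0.718 on the log2 scale over 26 mice (edgeR interaction test, adjusted p = 0.0142). That fit was chosen after seeing the data, and in it all ABX 5xFAD mice differ from the SPF 5xFAD mice in numbering style. ABX and SPF WT mice share a style, so genotype and style cannot be told apart there. Over 28 mice the adjusted p was 0.704, and over 26 mice 0 genes were called with library sizes alone or without FAD_SPF_1144, FAD_SPF_1148 or FAD_ABX_1455. The cause of these results was not tested.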

How the results depend on the processing

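The count of genes called over 28 mice was 0 with RLE size factors, library sizes alone, no filter, at least 10 counts in every library, only the compared groups, or adjusted p under 0.1. It was 8 with DESeq2, 134 with voomWithQualityWeights, 36 over 26 mice and 1085 at an unadjusted p under 0.05. Leaving out each mouse gave 0 to 59, the highest without FAD_ABX_1151. Over 26 mice the 36 calls became 65 without a filter, 156 with DESeq2, 552 with voomWithQualityWeights, 49 with the compared groups alone (29 higher and 20 lower, against 14 and 22), 86 at adjusted p under 0.1 and 1623 at an unadjusted p under 0.05. Leaving out 1 mouse gave 9 (without FAD_SPF_1146) to 57 (without FAD_ABX_1460), with 15 without FAD_ABX_1452, 13 without FAD_SPF_1144, 12 without FAD_ABX_1455 and 11 without FAD_SPF_1148. DESeq2 gave an adjusted p to 27 of the 36 genes and called all 27; voomWithQualityWeights called 35 of the 36 and the fit of the compared groups alone 20.

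The difference of the ABX effects between genotypes over 28 mice gave 1 call with DESeq2, 14 with voomWithQualityWeights, 1 over 26 mice, 1032 at an unadjusted p under 0.05, and 0 to 1 leaving out each mouse (1 without FAD_ABX_1151). Over 26 mice, an alternative chosen after seeing the data like the dendritic list and the other tools in WT mice, its 1 call became 0 with library sizes alone, 10 without a filter, 44 with DESeq2, 101 with voomWithQualityWeights, 7 with the compared groups alone, 3 at adjusted p under 0.1 and 1426 at an unadjusted p under 0.05, and 0 to 2 leaving out each mouse (0 without FAD_SPF_1144, FAD_SPF_1148 or FAD_ABX_1455).

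Among single genes over 28 mice the sign turned, with a shift of more than 1 SE, for *Cd4* with voomWithQualityWeights (-0.87), for *Ccl7* without FAD_ABX_1455, and without FAD_SPF_1144 for *Cd9*, *Lpl*, *S100b* and *Trem2*, none of them called. With voomWithQualityWeights it also turned, by less than 1 SE, for *Cdh5* (-0.71), *Lck* (-0.41), *Cd9* (0.02), *Cst7* (0.03) and *Trem2* (0.04). Leaving out each mouse, *Ccl7* ran from -0.089 to 1.889, *Cd9* from -0.175 to 0.074, *Lpl* from -0.352 to 0.037, *S100b* from -1.127 to 1.064 and *Trem2* from -0.075 to 0.101. The causes were not tested. No paired analysis was possible because the groups share no replicate number.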
